A study of Mus musculus with 2 samples.

Results

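The 10 genes described here encode ligands and receptors of the vascular endothelial growth factor (VEGF) and angiopoietin systems: the ligands Vegfa, Vegfb and Vegfc, their receptors Flt1, Kdr and Flt4, the ligands Angpt1 and Angpt2, and the receptors Tek and Tie1. They were selected by gene symbol and make up 10 of the 55536 genes in the table, of which 21951 are protein-coding. Their levels were measured in total RNA of the heart, from male B6CASTF1/J mice, the first-generation cross of B6 with CAST, at an age of 36 days. The labels give no treatment and 1 group with 2 biological replicates, called heart 1 and heart 2 here, each made into a stranded, ribosomal RNA-reduced library from 300 ng of RNA. Both biosamples carry the same donor entry, and the sources used here do not say if that means 1 animal, so the spread between them may be technical. No groups were compared, and an exact permutation of signs over 2 hearts cannot go below p = 0.5, so differences between the hearts are given by size, with no test.

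Endothelial cells line blood and lymphatic vessels, and 2 families of receptor tyrosine kinases on their surface govern how vessels form and persist. Vegfa binds Kdr, which carries most of the signal for endothelial growth and permeability, and Flt1, which binds it more tightly but signals weakly. Of the receptors Flt1, Kdr and Flt4, Vegfb binds Flt1 alone, and Vegfc acts mainly through Flt4, the receptor of lymphatic endothelium. Angpt1, made by cells around the vessel, activates Tek (also called Tie2) and keeps vessels quiet, while Angpt2, made by activated endothelium, can oppose it. Tie1 has no ligand that is firmly assigned to it and modulates Tek. In the adult heart, capillaries run beside nearly every muscle cell, and muscle cells are a known source of Vegfa and Vegfb.

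Vegfb and Vegfa were the most abundant of the 10 genes, the receptors Kdr, Flt1, Tie1 and Tek formed a middle tier together with Angpt1, and Flt4, Vegfc and Angpt2 were low. Levels are in TPM, the usual measure of transcript abundance, which divides read counts by transcript length and scales each library to the same total, so that genes can be set side by side. All genes but Angpt2 reached 1 TPM in both hearts, that is 9 of 10, and 7 reached 5 TPM. Among nuclear protein-coding genes, Vegfb ranked 343 and Vegfa 544 by mean TPM, while Angpt2 ranked 11739. When TPM is rescaled to those genes alone every level is higher, with Vegfa at a mean of 264.4 and Angpt2 at 1.70 in heart 1 and 1.92 in heart 2, so that all 10 genes pass 1 TPM. The libraries held 41846508 and 42481559 expected counts in hearts 1 and 2, of which each of the 10 genes had between 75 and 7172. In bulk tissue, fewer cells of a type and less RNA per cell cannot be told apart.

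**Figure D1:**
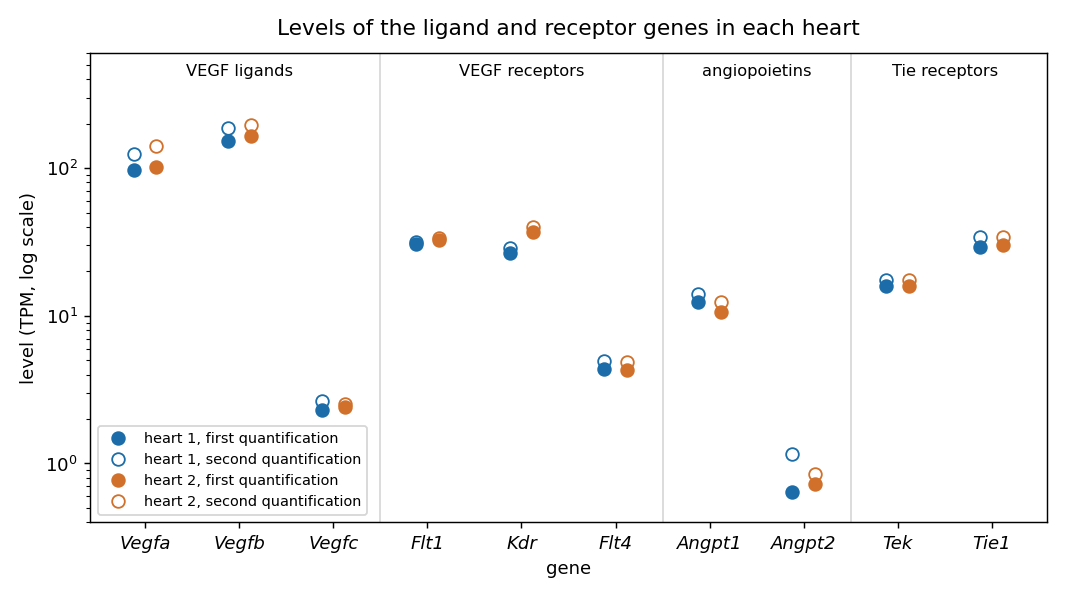
Level of each of the 10 genes in TPM on a log axis, by heart and by quantification; each point is 1 library, filled for the first quantification and open for the second. Vegfb and Vegfa lie above all receptors in both hearts, Kdr has the clearest gap between hearts (26.5 TPM in heart 1, 36.9 TPM in heart 2), and Angpt2 is lowest.

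The VEGF ligands were led by Vegfb, gene ENSMUSG00000024962.13, which lies on mm10 chromosome 19 from 6982473 to 6987651 on the minus strand. Its level was 153.0 TPM in heart 1 and 164.0 TPM in heart 2 in the first quantification, a mean of 158.5 ± 7.76 TPM (SD, n = 2, as for every SD here). Vegfa (ENSMUSG00000023951.17, chromosome 17, 46016993 to 46032369, minus strand) stood at 97.7 TPM in heart 1 and 102.2 TPM in heart 2. Vegfc (ENSMUSG00000031520.6, chromosome 8, 54077606 to 54187096, plus strand) was near the low end at 2.29 TPM in heart 1 and 2.42 TPM in heart 2. The hearts were close for each of the 3 ligands, and the ranges of the ligands did not overlap. Of the summed TPM of these ligands, Vegfb held 60.8 ± 0.414%, Vegfa 38.3 ± 0.411% and Vegfc 0.903 ± 0.0028%. The second quantification, made from the reads and an index, gave higher levels at the same order, with 186.6 and 196.2 TPM for Vegfb, and 125.1 and 141.4 TPM for Vegfa, in hearts 1 and 2. Counts not divided by length give the other order for these ligands, since Vegfa had 6900 and 6954 expected counts and Vegfb 5722 and 6122 in hearts 1 and 2.

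Vegfa transcripts are cut and joined in different ways, and the forms differ in whether they carry the coding exons for the heparin-binding stretch, which ties the protein to the matrix around cells. The annotation has a coding exon of 72 nt at chr17:46022277-46022348 and another of 132 nt at chr17:46020991-46021122, read on the minus strand of mm10. Transcripts with neither exon have the structure of VEGF120, which diffuses freely; those with the 132 nt exon alone have that of VEGF164; and those with both have that of VEGF188, the form held most tightly by the matrix. The spliced sequences below run 5′ to 3′ across chr17:46018861-46024094 in the GENCODE M21 transcripts, and are shown because the 3 forms are named here by these exons. The transcripts also differ elsewhere, being 2765 nt (Vegfa-201), 3451 nt (Vegfa-202) and 1973 nt (Vegfa-207) long. Their shares therefore need not rest on these exons alone. Capitals mark the exons that Vegfa-201 lacks.
Vegfa-201: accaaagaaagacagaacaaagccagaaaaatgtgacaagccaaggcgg
Vegfa-202: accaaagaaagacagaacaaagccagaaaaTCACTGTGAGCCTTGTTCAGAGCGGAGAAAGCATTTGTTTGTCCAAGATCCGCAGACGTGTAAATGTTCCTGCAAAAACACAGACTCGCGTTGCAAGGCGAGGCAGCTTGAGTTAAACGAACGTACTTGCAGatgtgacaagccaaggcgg
Vegfa-207: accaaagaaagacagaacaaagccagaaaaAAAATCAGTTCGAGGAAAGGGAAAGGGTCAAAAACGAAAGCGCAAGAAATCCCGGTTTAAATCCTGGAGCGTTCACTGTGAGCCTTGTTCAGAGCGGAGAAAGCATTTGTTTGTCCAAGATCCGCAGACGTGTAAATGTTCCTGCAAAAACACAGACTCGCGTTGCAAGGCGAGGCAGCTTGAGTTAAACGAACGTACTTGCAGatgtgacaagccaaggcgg
The annotated reading frames of Vegfa-202 and Vegfa-207, 368 and 392 codons long, begin further upstream than that of Vegfa-201, which has 146 codons.

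The VEGF164 structure was the leading coding form of Vegfa. It held 48.3% of the coding Vegfa TPM in heart 1 and 48.5% in heart 2, all of it from Vegfa-202 at 34.2 and 33.9 TPM. The VEGF188 structure, from Vegfa-207, held 33.9% in heart 1 and 33.2% in heart 2. The VEGF120 structure, from Vegfa-201, had the smallest share, 17.9% in heart 1 and 18.4% in heart 2. The order of the 3 forms was therefore the same in both hearts, with gaps far wider than the differences between hearts. In the second quantification the shares of the VEGF164, VEGF188 and VEGF120 structures were 51.6%, 35.2% and 13.1% in heart 1, and 46.3%, 33.0% and 14.0% in heart 2. There the 72 nt exon without the 132 nt exon (Vegfa-203) held 6.78% in heart 2 and was listed at 0 in heart 1. In expected counts the VEGF164 structure took 59.4% of the coding counts, more than in TPM, its main transcript being the longest of the 3 at 3451 nt.

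Not all RNA assigned to Vegfa was of a coding form. The 5 retained-intron entries among its 13 annotated transcripts held 27.6% of the gene's TPM in heart 1 and 31.5% in heart 2, but only 5.84% and 6.97% of its expected counts, since TPM divides by length and they are short (463 to 874 nt). Vegfa-209 took 13.8% of the gene's TPM in heart 1 and 15.0% in heart 2, and Vegfa-206 took 11.0% and 12.5%. The second quantification put the retained-intron entries at 35.6% in heart 1 and 41.9% in heart 2, with Vegfa-208 at 6.38% and 14.2%. Of the 10 genes, Vegfa had the largest share in entries with no coding frame, in both hearts and both quantifications other than for heart 1 in the second, where Angpt2 had 40.3%.

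Vegfb was split between 2 coding forms. Vegfb-202, whose 188 codons correspond to VEGF-B167, the heparin-binding form, held 56.4% of the gene's TPM in heart 1 and 58.1% in heart 2. Vegfb-201, with 207 codons for the freely diffusing VEGF-B186, held 43.4% in heart 1 and 41.2% in heart 2. The second quantification gave 55.7% and 56.7% for Vegfb-202 in hearts 1 and 2, so its lead held in each library and each quantification. The forms differ by 101 nt at chr19:6985496-6985596 (mm10, minus strand), which Vegfb-201 takes in through an earlier splice acceptor and which shifts the frame after it. The spliced sequences across chr19:6985466-6985840 are shown with those 101 nt in capitals.
Vegfb-201: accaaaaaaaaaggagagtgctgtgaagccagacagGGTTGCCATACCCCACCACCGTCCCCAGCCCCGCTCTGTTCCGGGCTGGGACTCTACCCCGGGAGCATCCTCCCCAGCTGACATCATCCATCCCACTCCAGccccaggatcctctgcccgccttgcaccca
Vegfb-202: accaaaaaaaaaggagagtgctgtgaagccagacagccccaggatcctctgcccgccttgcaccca
Vegfc, the lymphatic growth factor, was too low for its forms to be resolved well. Its 415-codon transcript Vegfc-201 held 84.8% of the TPM in heart 1 and 79.8% in heart 2, and the shorter Vegfc-203 held the rest, 15.2% and 20.2%, on 5.33 and 7.53 expected counts.

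**Figure D2:**
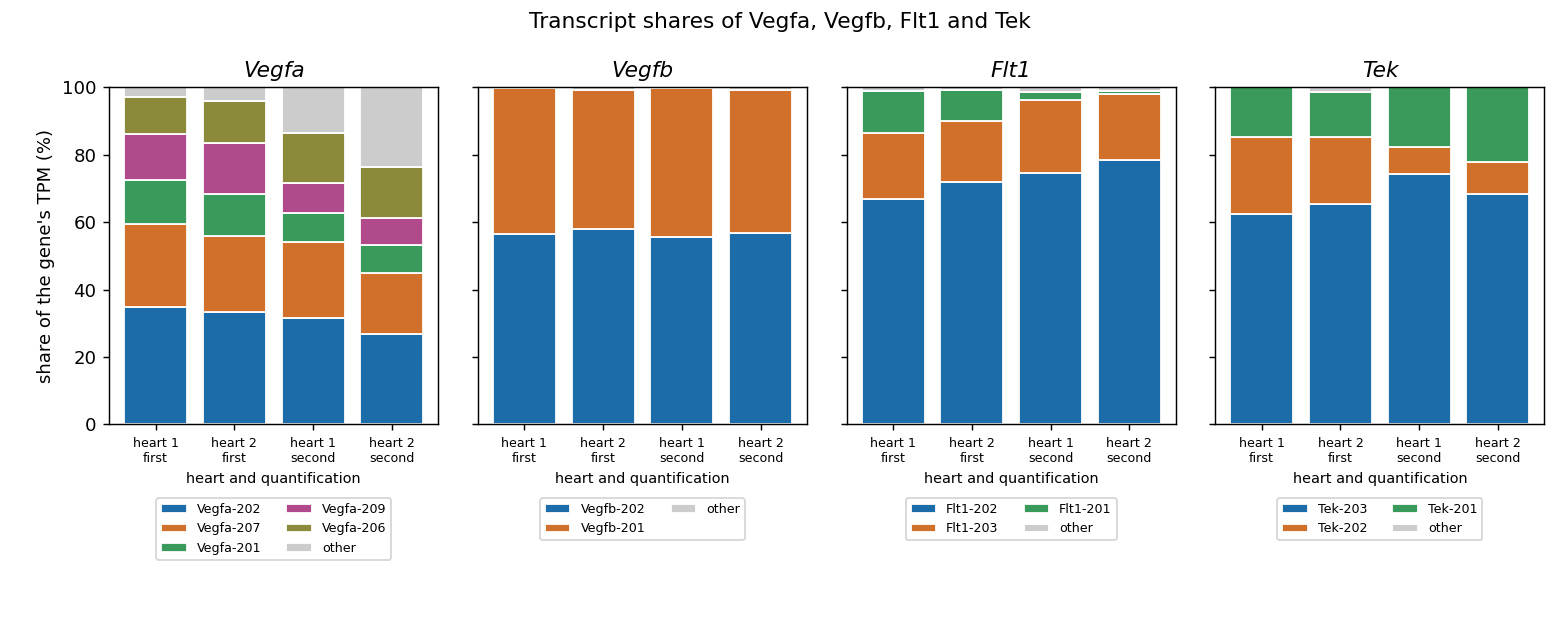
Share of each gene's TPM (%) by transcript for Vegfa, Vegfb, Flt1 and Tek; each bar is 1 heart in 1 quantification, and grey holds the transcripts not listed. The leading transcript is the same in all 4 bars of each panel, while the noncoding Flt1 transcript (green; 12.6% and 9.30% in hearts 1 and 2 in the first quantification, 2.53% and 0.858% in the second) and Tek-202 depend on the quantification.

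Among the VEGF receptors, Kdr (VEGFR2, ENSMUSG00000062960.10, chromosome 5, 75932827 to 75978458, minus strand) had the widest gap between hearts of the 10 genes. It stood at 26.5 TPM in heart 1 and 36.9 TPM in heart 2, on 5147 and 7172 expected counts. Flt1 (VEGFR1, ENSMUSG00000029648.13, chromosome 5, 147561604 to 147726011, minus strand) stood at 30.5 TPM in heart 1 and 32.4 TPM in heart 2. Flt4 (VEGFR3, ENSMUSG00000020357.3, chromosome 11, 49609263 to 49652739, plus strand) was low in both, at 4.33 TPM in heart 1 and 4.28 TPM in heart 2. The range of Kdr took in both values of Flt1, so these receptors could not be ordered. Their places were exchanged between hearts: of the summed TPM of the 3 receptors Flt1 held 49.8% in heart 1 and 44.0% in heart 2, and Kdr 43.1% and 50.2%. Flt4 held 7.06% in heart 1 and 5.82% in heart 2.

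Flt1 reads were assigned to transcripts of a membrane form and of a soluble form, and no protein was measured. The transcript of the membrane form, with 1333 codons in 30 coding exons, encodes the whole receptor with its membrane span and kinase, and held 66.9% of the gene's TPM in heart 1 and 72.03% in heart 2. That of the soluble form has 688 codons in 13 coding exons and reads through into the following intron. This is the structure of soluble Flt1, a secreted decoy that binds Vegfa and Vegfb without signalling. It held 19.4% in heart 1 and 18.0% in heart 2, and 21.5% and 19.5% in the second quantification, at 5.92 and 5.83 TPM in the first. The soluble form was thus nearly level between hearts, and the membrane form was at 20.5 TPM in heart 1 and 23.3 TPM in heart 2. Unspliced RNA of that intron was not told apart from the soluble form here. The sequences start 30 nt before the end of coding exon 13, on the minus strand of chromosome 5. Capitals mark what follows it. In the membrane form they are the first 92 nt of the next coding exon, which has 147 nt (chr5:147634432-147639254 in all). In the soluble form they are the 92 nt of read-through at chr5:147639133-147639224.
Flt1 membrane form: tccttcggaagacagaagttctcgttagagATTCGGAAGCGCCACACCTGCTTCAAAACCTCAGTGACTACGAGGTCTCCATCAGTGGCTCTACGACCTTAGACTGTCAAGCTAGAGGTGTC
Flt1 soluble form: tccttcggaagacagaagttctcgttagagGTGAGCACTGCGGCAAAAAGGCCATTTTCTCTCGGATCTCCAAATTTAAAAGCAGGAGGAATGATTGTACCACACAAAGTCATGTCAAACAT
A processed Flt1 transcript with no coding frame held 12.6% of the TPM in heart 1 and 9.30% in heart 2, and 2.53% and 0.858% in the second quantification. Kdr and Flt4 came almost wholly from 1 coding transcript each: Kdr-201 (1345 codons) held 98.0% in heart 1 and 96.8% in heart 2, and that of Flt4 (1363 codons) 97.7% and 94.8%.

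**Figure D3:**
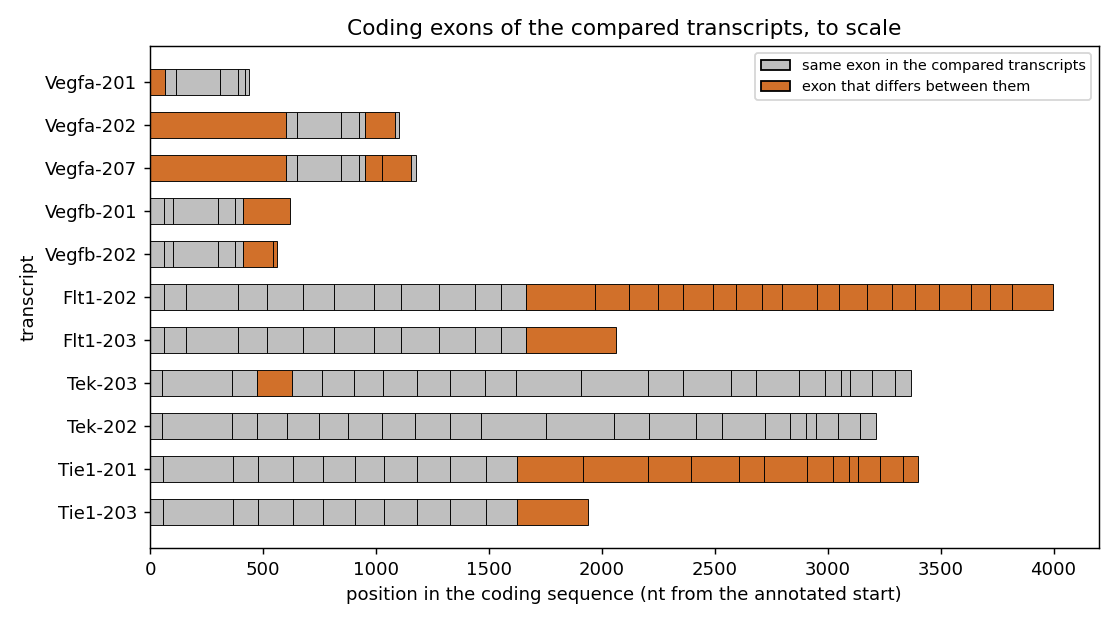
Coding exons of the compared transcripts laid end to end, to scale, in nt from the annotated start of the reading frame; grey exons are the same in the compared transcripts of a gene and orange ones differ. The soluble Flt1 form stops within block 13, where the membrane form goes on to 30, and Tek-202 differs from Tek-203 by 1 exon of 153 nt.

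Angpt1 far exceeded Angpt2. Angpt1 (ENSMUSG00000022309.9, chromosome 15, 42424723 to 42676977, minus strand) stood at 12.4 TPM in heart 1 and 10.7 TPM in heart 2, on 1732 and 1466 expected counts. Angpt2 (ENSMUSG00000031465.6, chromosome 8, 18690263 to 18741562, minus strand) stood at 0.64 TPM in heart 1 and 0.73 TPM in heart 2, on 75 and 85 expected counts. Angpt1 had the higher value in heart 1, and the 2 angiopoietins did not come near each other in either heart. Angpt1 held 94.3 ± 1.06% of their summed TPM, and 93.0 ± 0.845% in the second quantification. Both had 1 main coding transcript each, of 498 codons for Angpt1 with 99.5% in heart 1 and 96.4% in heart 2, and of 496 codons for Angpt2 with all of the TPM in both. The second quantification placed 40.3% of the Angpt2 TPM of heart 1 on a noncoding Angpt2 transcript and none of that of heart 2. Genes on the opposite strand overlap both: Gm17473 at Angpt1 had 23 and 19 expected counts, and Mcph1 at Angpt2 had 205 and 219, in hearts 1 and 2. Per the labels the libraries are stranded, and the sources used here do not say how strand entered the counting.

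The Tie receptors were nearly level between hearts. Tie1 (ENSMUSG00000033191.14, chromosome 4, 118471191 to 118490061, minus strand) stood at 29.4 TPM in heart 1 and 30.1 TPM in heart 2. Tek, the angiopoietin receptor (ENSMUSG00000006386.15, chromosome 4, 94739289 to 94874976, plus strand), stood at 15.80 TPM in heart 1 and 15.84 TPM in heart 2. Tie1 held 65.3 ± 0.332% of their sum, so the receptor with no firmly assigned ligand was the more abundant in both hearts. Tek also exceeded its ligand Angpt1, with ranges that did not overlap (15.80 to 15.84 TPM against 10.7 to 12.4 TPM). Of the Tie1 TPM, the full-length transcript (1134 codons) held 90.2% in heart 1 and 89.5% in heart 2. A shorter one, whose 647 codons end after 26 nt of read-through at chr4:118479587-118479612, held 6.43% and 7.41%.

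Tek had 3 coding transcripts whose coding sequences differ in small pieces. The whole transcripts also differ in length, at 4654 nt (Tek-203), 4549 nt (Tek-202) and 4176 nt (Tek-201). Tek-203 (1123 codons) led with 62.6% of the TPM in heart 1 and 65.4% in heart 2, and with 74.2% and 68.4% in the second quantification. Tek-202 (1072 codons) lacks the 153 nt exon at chr4:94799127-94799279 (mm10, plus strand), which keeps the frame. It held 22.8% in heart 1 and 19.8% in heart 2, against 8.16% and 9.50% in the second quantification, so its share depended on the quantification. Tek-201 (1122 codons) lacks only 3 nt of the coding sequence, at chr4:94851875-94851877, and held 14.6% and 13.6%. In the second quantification it held 17.7% in heart 1 and 22.1% in heart 2, more than Tek-202, so the order of these minor forms turned between quantifications. The sequences across chr4:94798702-94804304 show the exon that Tek-202 skips in capitals.
Tek-203: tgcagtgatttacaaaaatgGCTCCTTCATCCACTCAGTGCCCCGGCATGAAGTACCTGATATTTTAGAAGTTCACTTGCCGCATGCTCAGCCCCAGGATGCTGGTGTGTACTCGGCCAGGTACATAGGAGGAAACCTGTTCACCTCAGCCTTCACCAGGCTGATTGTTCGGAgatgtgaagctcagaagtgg
Tek-202: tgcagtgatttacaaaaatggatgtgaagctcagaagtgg
Across all 10 genes the leading transcript was the same in both hearts and in both quantifications, and it was protein-coding in 10 of 10. The genes have 41 annotated transcripts, 23 of them protein-coding.

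Ordered by mean TPM the genes ran Vegfb (158.5), Vegfa (99.9), Kdr (31.7), Flt1 (31.5), Tie1 (29.7), Tek (15.8), Angpt1 (11.5), Flt4 (4.30), Vegfc (2.35) and Angpt2 (0.685). Of neighbours in this order, only Kdr and Flt1 had overlapping ranges over the hearts; the range of Kdr also took in Tie1. In the second quantification Tie1 (34.1 TPM) passed Flt1 (32.7 TPM) and overlapped Kdr (34.3 TPM), and the other places were kept. The largest steps between neighbours in the first quantification were 3.44-fold from Vegfc to Angpt2 and 3.15-fold from Vegfa to Kdr. In the second they were 3.89-fold from Vegfa to Kdr and 2.69-fold from Angpt1 to Flt4, with 2.58-fold from Vegfc to Angpt2. FPKM, another unit adjusted for length, differs from TPM only by a constant factor in each library. Shares within families are therefore the same by construction, with Vegfb at 60.8% of the VEGF ligands.

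Between hearts, Kdr was lower in heart 1, and no other of the 10 genes passed the rule of size used here. Angpt1 came nearest to it, with the higher value in heart 1, and the widest ratio among the remaining 8 genes was -0.13, that of Angpt2. Ratios are given as log2 of heart 1 over heart 2, from expected counts scaled by TMM, with a 95% interval that covers counting error only. That of Kdr was -0.43 (interval -0.49 to -0.38), or 0.740-fold, and that of Angpt1 was 0.29 (0.18 to 0.39), or 1.22-fold. The second quantification gave -0.44 for Kdr and 0.26 for Angpt1. By a rule of size, at least 0.32 on the log2 scale in either direction at a mean expected count of at least 50, Kdr was the only 1 of 10 genes past the threshold. Of all 12541 genes with that count, 14.0% were past it, 7.67% as higher in heart 1 and 6.3% as higher in heart 2. The count of 1 is thus close to the background. Neither these shares, here and below, nor the median of all genes were matched by count to the genes described, and low counts widen ratios. No gene of the 10 was past 1.5-fold or 2-fold, against 4.27% and 1.28% of all genes. The median absolute log2 ratio was 0.063 over the 10 genes and 0.108 over all 12541, and 90% of all genes lay below 0.388, a value that Kdr exceeded.

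**Figure D4:**
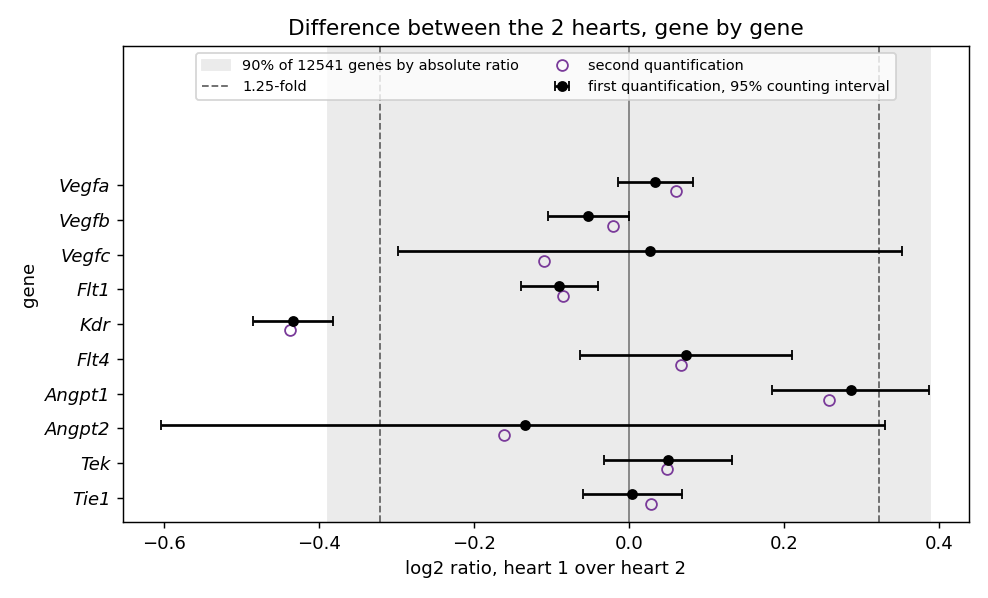
Log2 ratio of heart 1 over heart 2 for each gene; filled points with bars are the first quantification with its 95% counting interval, open points the second, the grey band holds 90% of 12541 genes by absolute ratio and dashed lines mark the size threshold of 0.32. Kdr lies outside the band to the left at -0.43, Angpt1 at 0.29 stops short of the right dashed line while its interval crosses it, and the intervals of Vegfc and Angpt2 are the widest.

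The 3 receptors for VEGF did not shift alike. Flt1 had a ratio of -0.09 (interval -0.14 to -0.04) and Flt4 of 0.07 (-0.06 to 0.21), beside the -0.43 of Kdr. Tie1 (0.004, interval -0.06 to 0.07) and Tek (0.05, interval -0.03 to 0.13) had intervals that took in 0, as did Vegfa at 0.03 (-0.01 to 0.08). Vegfb, at -0.05, had an interval whose upper bound lay at -0.0002. Low counts left Vegfc (0.03, interval -0.30 to 0.35) and Angpt2 (-0.13, interval -0.60 to 0.33) with intervals that took in both no difference and one past the size threshold. When the hearts were scaled by their spike-in RNAs instead, the median of all genes moved to -0.07; Kdr was then at -0.51 and Angpt1 at 0.21, and Vegfa, Vegfc, Flt4, Tek and Tie1 turned to values below 0. Tie1 was also below 0 when scaled by library totals (-0.02), and Vegfc in the second quantification (-0.11).

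Markers of endothelial cells were present in both hearts, with ratios in both directions. All 15 fixed markers were above 1 TPM in both hearts, with a summed level of 447.8 TPM in heart 1 and 483.0 TPM in heart 2 and a median log2 ratio of 0.11. The highest by the mean of both hearts, the junction protein Cdh5, stood at 55.8 TPM in heart 1 and 58.7 TPM in heart 2 and the adhesion molecule Pecam1 at 53.4 and 51.2 TPM. By the same rule of size, 1 marker was higher in heart 1, the transcription factor Sox17 (ratio 0.64), and 2 were lower, the transcription factor Sox18 (-0.66) and the secreted factor Egfl7 (-0.55), which at 67.4 TPM in heart 2 was above Cdh5 there. Of all 12541 genes with a mean count of at least 50, 7.67% were higher in heart 1 by that rule and 6.3% lower. Small counts of this kind, here and in the lists below, are therefore not read as a result about a list. The ratio of Kdr lay below those of 13 of 15 markers, Sox18 and Egfl7 being the exceptions, and that of Angpt1 above 14 of 15. Of 8 capillary markers 1 was higher in heart 1 and 1 lower, with a median ratio of 0.05. The transcript of Rgcc, a cell cycle regulator found in capillary endothelium, was the extreme at 1.10 (42.3 TPM in heart 1, 20.2 TPM in heart 2), and that of the glycerol channel Aqp7 lay at -0.50. The fatty acid carrier Cd36 was the highest of that list (647.6 TPM in heart 1, 769.2 TPM in heart 2). Lymphatic markers had a median ratio of 0.05 with 2 of 6 higher in heart 1, Pdpn and, with the widest ratio, Lyve1 (0.56; 15.4 TPM in heart 1, 10.4 TPM in heart 2), while Prox1, the lymphatic master regulator that heart muscle also transcribes, was at -0.24.

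Genes of other tissues and cell types also differed between the hearts. All 5 adipocyte markers with a mean count of at least 50 and all 6 such red blood cell genes were higher in heart 1. The summed level of the 6 adipocyte markers was 95.6 TPM in heart 1 and 22.4 TPM in heart 2; Ucp1, the uncoupling protein of brown fat, stood at 31.6 and 0.89 TPM, and the fat hormone Adipoq at 7.14 and 1.38 TPM. The 7 red blood cell genes on the list summed to 20329 TPM in heart 1 and 9336 TPM in heart 2. Epicardial markers had a median ratio of 0.43 with 5 of 6 higher in heart 1, fibroblast markers 0.19 with 3 of 7 (Postn at 0.57), and endocardial markers 0.20 with 1 of 5, Plvap at 0.36. Mural cells, the pericytes and smooth muscle that are a known source of Angpt1, had a median of 0.01 with 1 of 10 lower in heart 1, the channel subunit Kcnj8 at -0.42. Cardiomyocyte markers had a median of -0.08 with none of 8 past the threshold, macrophage markers 0.08 with 1 of 7 lower in heart 1 (Cx3cr1 at -1.75) and platelet markers 0.48 with 2 of 3 higher. Immediate early genes, which are switched on fast when tissue is handled, had a median of 0.97 over 8 genes; of the 7 with a mean count of at least 50, whose median was 0.41, 5 were higher in heart 1, Nr4a1 most (3.13). The part of any of these in the ratios of Kdr and Angpt1 was not tested.

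**Figure D5:**
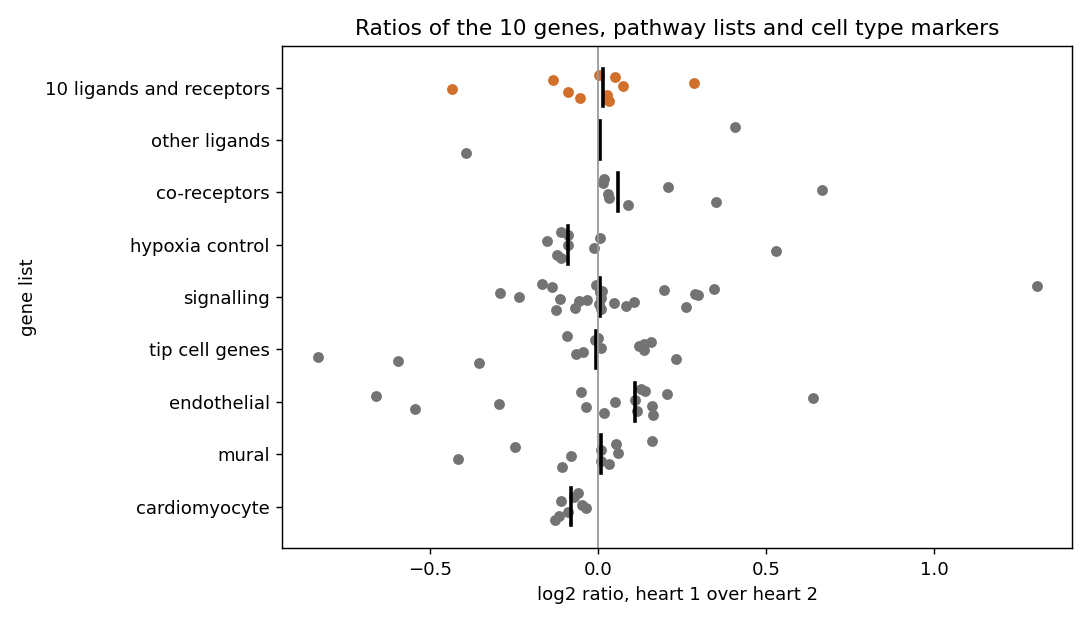
Log2 ratio of heart 1 over heart 2 for each gene of a list with a mean expected count of at least 10; points are genes and black bars the list medians. The 10 ligand and receptor genes (orange) centre at 0.015. Among the lists drawn, the widest ratios to either side are those of Klf2 among signalling genes (1.31) and Aplnr on the tip cell list (-0.83).

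The remaining ligands of both families were scarce. Pgf, the placental growth factor that binds Flt1, stood at 2.21 TPM in heart 1 and 1.70 TPM in heart 2 (ratio 0.41, interval -0.02 to 0.84), and Vegfd, a ligand of Flt4, at 0.46 and 0.65 TPM. Angpt4, a further angiopoietin, stood at 0.15 and 0.08 TPM, on 11 and 6 expected counts. The co-receptor Nrp1, which holds the VEGF164 form on Kdr, stood at 37.9 TPM in heart 1 and 37.0 TPM in heart 2, above Kdr in heart 1 and level with it in heart 2. Nrp2, the co-receptor favoured by Vegfc, stood at 11.6 and 9.34 TPM (ratio 0.35), and Ptprb, the phosphatase that opposes Tek, at 30.5 and 30.7 TPM. The integrin chain Itgb1 was the highest of the 8 partners (149.9 TPM in heart 1, 151.4 TPM in heart 2), and 2 of 8 were higher in heart 1 by the rule of size, Nrp2 and the integrin chain Itgb3 (0.67), which stood at 1.72 TPM in heart 1 and 1.11 TPM in heart 2, below Pgf. Their median ratio was 0.06, beside -0.001 for all genes.

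Genes that control Vegfa through oxygen had a median ratio of -0.09, and 1 of 9 passed the threshold, Hif3a (0.53), as higher in heart 1. Epas1, a hypoxia-inducible factor first described in endothelium, stood at 99.6 TPM in heart 1 and 113.1 TPM in heart 2, above Hif1a at 17.2 and 19.6 TPM. Egln1, the oxygen-sensing hydroxylase, stood at 98.9 and 113.1 TPM (ratio -0.15). Vegfa itself had a ratio of 0.03.

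Of 24 genes that signal downstream of these receptors, 23 had a mean count of at least 50 and 1 passed the threshold, Klf2, a transcription factor induced by blood flow, at 37.5 TPM in heart 1 and 15.6 TPM in heart 2 (ratio 1.31). The kinase Akt1 was the highest at 89.0 and 78.4 TPM (0.26), the adaptor Nck1 had the lowest ratio (-0.29), and the nitric oxide synthase Nos3 stood at 11.6 and 9.66 TPM (0.30). The list's median ratio was 0.007. The list called tip cell genes here also holds genes not particular to the front of growing vessels, such as the receptors Notch1 and Notch4. Of its 13 genes with a mean count of at least 50, 2 were lower in heart 1 and none higher. That count is close to the background, since 14.0% of all genes were past the threshold in either direction. The 2 genes were Aplnr, the apelin receptor, at 11.8 TPM in heart 1 and 22.3 TPM in heart 2 (-0.83), and Dll4, the Notch ligand induced through Kdr, at 6.07 and 8.17 TPM (-0.35). A link of either to the ratio of Kdr was not tested. The median of the list was -0.005; its highest member was Plxnd1, a semaphorin receptor, at 28.2 and 27.5 TPM, and its highest ratio that of the peptide Apln (0.23). Esm1, a tip cell marker, had 8 and 13 expected counts in hearts 1 and 2, too few for a direction.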

How the data were processed

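Total RNA of 2 heart samples of 1 group, called heart 1 and heart 2, was analysed. In the first quantification the authors deposited expected counts, TPM and FPKM for genes and transcripts, with each transcript's percent of its gene's TPM, from transcriptome alignments on mm10 with GENCODE M21 per the sample notes. The deposited bounds of a TPM credibility interval, a further signal, were not used in the text. For the second quantification, made from reads and an index, the authors deposited each transcript's estimated count and TPM, which were summed per gene here. Quantification tools were not given in the sources used here.

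Genes were matched by symbol and identifier, and exons and sequences were read from GENCODE M21 (positions counted from 1). Expected counts were rounded for TMM over 15103 genes (edgeR 4.0.16, R 4.3.3; DESeq2 1.42.0 size factors as an alternative). Log2 ratios used a prior count of 1, and their 95% intervals are exact Clopper-Pearson; without molecular identifiers these cover counting error only. A count of 0 allows 3 counts, or 0.0717 and 0.0706 CPM in hearts 1 and 2. Lists were described by the median ratio of their genes with a mean expected count of at least 10. Ratio and size rule were run on simulated counts that held counting error only and were scaled by library totals. That run therefore says nothing about variation between hearts.

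The 10 genes and all lists were chosen with earlier results of these data known. Named are the 10 genes, their leading transcripts and those with at least 10% of the TPM in both hearts in either quantification, the highest gene and those with the widest ratios of each list, of which only some are printed for the cell types, and 15 further genes given by name. Other items were added after their values were seen. Alleles of the cross were not analysed here.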

Additional observations from a re-analysis of the deposited data

How the results depend on the processing

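No paired analysis was possible because the labels give 1 group. Kdr remained the only gene of the 10 past the size threshold under library totals, DESeq2 size factors, spike-in totals, the second quantification, and a count filter of 10 or none; at 1.5-fold and 2-fold 0 genes were past. The number of all genes past the threshold was 1752, between 1744 and 1872 under the other scalings and the second quantification, 3580 with a count filter of 10 and 10760 with none. The share of Vegfa among the VEGF ligands (38.3%) was 53.3% in expected counts and 40.7% in the second quantification; only in counts does it pass Vegfb. The share of Angpt1 (94.3%) was 93.0% in the second quantification, and that of Tek (34.7%) was 37.4% in counts and 34.0% in the second quantification. The VEGF164 structure (48.4% of coding Vegfa TPM) held 49.0% in the second quantification, 59.4% in expected counts and 34.1% of the whole gene's TPM, and the soluble Flt1 form (18.7% of its TPM) held 20.5% in the second quantification. These transcript shares were added as results after the data were seen. Why the 2 quantifications differ was not tested. Taking 1 heart alone, Kdr held 43.1% or 50.2% of the VEGF receptors. Of the other values under alternatives, 196 stayed within the limit set for their kind and 42 did not. That limit was the SD between hearts for levels and transcript shares, and the counting interval for ratios. For list medians it was 0.108, the median absolute log2 ratio of all genes, and for numbers of genes 1.5-fold. The value of 1 heart alone always lies within the SD of 2 hearts around their mean, so leaving out 1 heart could not pass that limit. Rescaling TPM to nuclear protein-coding genes raises every level as a change of unit. The split of 196 and 42 was therefore partly fixed in advance and does not measure how stable the results are. Counts of 75 to 161 limit Angpt2 and Vegfc.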
